A study of Homo sapiens with 6 samples.

Results

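The 84 genes described here encode the proteins of the cytosolic ribosome. They were chosen by symbol (RPL, RPLP, RPS and RPSA genes, without pseudogenes and without the RPS6K kinases) from the 40396 Ensembl gene IDs of the expression table, and 52 of them belong to the large subunit and 32 to the small subunit. RNA was taken from H1 cells, a human embryonic stem cell line, after 3 days of differentiation to definitive endoderm (DE). The medium held activin A at 50 ng/ml throughout and the Wnt activator CHIR99021 at 2.5 µM during the first 24 h. The SAR group of 3 samples had 0.5 µM saracatinib (SAR) in the medium for all 3 days. The control group of 3 samples had an equal volume of DMSO. SAR is known as an inhibitor of Src family kinases. At the dose used here, however, the paper reports no effective inhibition of Src phosphorylation. It reports less phosphorylation of focal adhesion kinase at some, but not all, of the sites it examined. All 6 samples come from 1 cell line, and separate cultures are not stated for the replicates, so that p-values measure the spread between these samples only.

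The cytosolic ribosome consists of a small subunit, which reads the mRNA, and a large subunit, which joins amino acids. Each subunit is built around ribosomal RNA, and most ribosomal proteins occur in a single copy per ribosome, so cells make them in balanced amounts. Their mRNAs are among the most abundant of growing cells, and many begin with a C followed by a run of pyrimidines, the 5′ terminal oligopyrimidine (TOP) motif, through which mTOR signaling and LARP1 control their translation. Ribosomal protein genes have also left many processed pseudogenes in the genome, and a few have a paralog that cells express at other levels or in other tissues.

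The start of the mRNA is shown for genes on which the results below turn. Each line gives 10 bases before and 20 bases from an annotated start, 5′ to 3′ on the strand of the gene (RefSeq, GRCh38.p14), and capitals mark an unbroken run of C and T that begins with C at the start itself. RPLP0 (chr12:120201092-120201121, minus strand) was the reference gene of the study's qPCR, RPL34 (chr4:108620566-108620595, plus strand) and RPL22 (chr1:6199576-6199605, minus strand) had the largest fold changes of the large subunit, RPS28 (chr19:8321486-8321515, plus strand) had the largest of the small subunit, and RPL17 (chr18:49492446-49492475, minus strand) was the gene that fell. RPL22L1 (chr3:170870176-170870205, minus strand) and RPS27L (chr15:63157458-63157487, minus strand) are paralogs whose ratio to the parent gene did not overlap between the groups. Each ratio had the smallest exact permutation p that 3 against 3 libraries can give, 0.1 (0.3 after adjustment over 6 pairs). Neither could have passed a threshold of 0.05, so this test cannot decide whether the ratios differ.
RPLP0: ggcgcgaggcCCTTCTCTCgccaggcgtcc
RPL34: cttttttcttCCTCTTCCggggacgttgtc
RPL22: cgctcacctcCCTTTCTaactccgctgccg
RPS28: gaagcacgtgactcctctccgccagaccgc
RPL17: ttccctaagcagcctgaggtgagtgtttct
RPL22L1: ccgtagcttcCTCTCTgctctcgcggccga
RPS27L: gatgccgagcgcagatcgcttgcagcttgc
The run was 9 bases long in RPLP0, 8 in RPL34, 7 in RPL22 and 6 in RPL22L1, and the annotated starts of RPS28, RPL17 and RPS27L had none. In RPS28, however, a run of C and T follows directly after the first base, so its count depends on the exact base annotated as the start. The table holds 2 starts of RPL34, of which the one with the run is shown, and the other had a run of 0.

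A start with C and at least 4 further pyrimidines was found in 47 of the 67 members with a promoter in the RefSeq table, which is 70.1%, and in 5.14% of all 27305 genes of that table. Among the 5 paralogs in the table, RPL22L1 was the 1 gene with such a start. Within 250 bases before to 50 bases after the start, CCGGAA was found on either strand in 58.2% of the members and in 20.1% of all genes, and ATGGCG was found in 41.8% and 12.7%. TATAAA, searched on the gene strand between 20 and 40 bases before the start, was found in 5.97% and 2.85%. A match of letters does not show binding or translation control. The run had to begin at the annotated base itself, so RPS28 counted as a member without it. The median log2 fold change with SAR was 0.24 in the 47 tested members with the run and 0.21 in the 19 tested members of the table without it.

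Members lay on 21 chromosomes, with 12 of them on chromosome 19. In GENCODE 29, 28 members (33.3%) held at least 1 small nucleolar RNA gene, against 1.26% of the 19173 other protein-coding genes. Of these 28 host genes, 17 were upregulated and 1 was downregulated by the test described below, and of the 54 other tested members 25 were upregulated, which is 60.7% and 46.3% upregulated against 23.7% of all tested genes (9.55% were downregulated). The median log2 fold change was 0.22 in both sets.

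Expression was deposited as FPKM, in which a gene's fragments are divided by its length and by the library total. The total reads per library, recovered from these values, were between 18877964 and 24419937 in control and between 16681280 and 18389543 with SAR. Among DE markers, SOX17 was at 32.1, 29.6 and 33.2 FPKM in control replicates 1, 2 and 3 and at 85.4, 68.5 and 48.8 FPKM with SAR, and FOXA2 rose as well. By the test described below, 23.7% of all tested genes rose and 9.55% fell as deposited. After the rescaling described below, 13.8% rose and 15.5% fell. Of all 11 DE markers, 4 rose and 7 fell under both scalings (36.4% and 63.6%). Their summed levels as deposited were 4275 to 5338 FPKM in control and 2155 to 2199 FPKM with SAR. CER1 alone made up 3540 to 4603 FPKM of this sum in control and 1645 to 1714 FPKM with SAR. Of 9 pluripotency markers, 3 rose and 1 fell as deposited (33.3% and 11.1%, summed 946 to 1060 against 1152 to 1165 FPKM). After rescaling, 1 of them rose and 1 fell (11.1% each). Of 10 mesoderm markers 6 were tested, 2 rose and 2 fell under both scalings (33.3% each, 65.2 to 68.7 against 41.6 to 53.9 FPKM). Neural (1 of 3 tested rose under both scalings, 33.3%, 212 to 226 against 210 to 221 FPKM) and erythroid markers (0 of 1, 0.958 to 1.82 against 0.961 to 1.26 FPKM) were measured likewise. No gene of these lists in the table was at 0 in all libraries. The part of a changed mixture of cells in the results below was not tested, and in bulk RNA fewer cells of a type and less RNA per cell cannot be told apart.

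Ribosomal protein mRNA took up a larger share of the RNA measured with SAR. The 84 genes together made up 9.52%, 9.10% and 9.31% of the FPKM of all genes in control replicates 1, 2 and 3. They made up 10.6%, 10.7% and 10.4% in SAR replicates 1, 2 and 3. The lowest SAR library lay above the highest control library. The difference of the group means was 0.18 on the log2 scale, a fold of 1.13, with a two-sided exact permutation p = 0.1, the smallest that 3 against 3 libraries can give. A share within a library does not depend on how the libraries are scaled to each other. It does depend on all other genes, and a typical gene also moved. Before the rescaling described below, the median change on the log2 scale was 0.12 for all tested genes and 0.22 for members. The FPKM sums of the libraries overlapped, at 270606 to 282695 in control and 276313 to 293045 with SAR. The difference of 0.18 therefore cannot be read as wholly particular to the members. Counted as reads without regard to gene length, the members held 7.72%, 7.04% and 7.34% of the reads in control and 8.92%, 8.69% and 8.21% with SAR, again without overlap. Mitochondrially encoded genes, which also take up a large share, held between 14.2% and 16.4% of FPKM in control and between 13.3% and 15.98% with SAR. Against protein-coding nuclear genes alone, the difference in share was 0.19 on the log2 scale.

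The balance of the subunits did not differ beyond the spread between replicates. The summed FPKM of the large subunit was 1.32, 1.34 and 1.32 times that of the small subunit in control replicates 1, 2 and 3. With SAR it was 1.33, 1.33 and 1.31 times. The groups overlapped, and the difference was -0.005 on the log2 scale (two-sided exact permutation p = 0.8). Its sign turned to 0.01 without the 5 members with the highest FPKM. Gene by gene, the median log2 fold change was 0.22 over the 50 tested genes of the large subunit and 0.23 over the 32 of the small subunit.

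**Figure D1:**
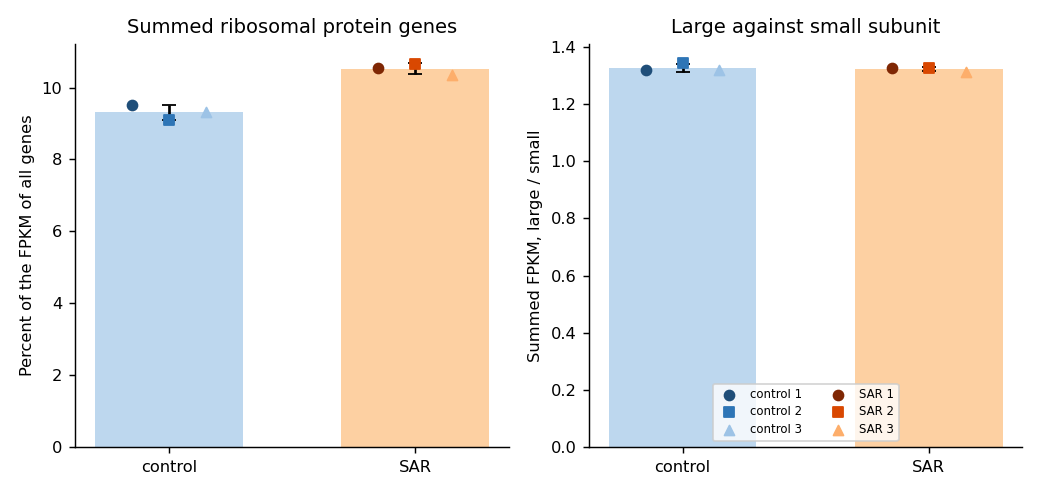
Left, the summed FPKM of the 84 ribosomal protein genes as a percent of the FPKM of all genes, and right, the summed FPKM of the large subunit divided by that of the small subunit, for 3 control and 3 SAR libraries. Bars are means, error bars SD and points single libraries. The SAR libraries lie at 10.4% to 10.7%, above the control libraries at 9.10% to 9.52%, and the subunit ratios overlap.

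Single genes were tested with limma on log2(FPKM + 0.1) among 16371 genes that averaged 0.5 FPKM or more, with Benjamini-Hochberg adjustment over all of them. Of the 84 members 82 were tested. With FPKM as deposited, 42 members were upregulated at an adjusted p-value under 0.05, which is 51.2% of the members against 23.7% of all tested genes. By subunit these were 25 of 50 large and 17 of 32 small subunit genes. One member, RPL17, was downregulated, against 9.55% of all tested genes. No member had an absolute log2 fold change over 1, the additional limit of the study, which 3.41% of all tested genes passed upwards and 1.58% downwards (2.46% and 2.21% after the rescaling described below).

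The changes of single members were small. The fitted log2 fold change was above 0 in 75 of 82 members (64.0% of all genes), with a median of 0.22 and quartiles of 0.16 and 0.28. Over all tested genes the median was 0.12, with quartiles of -0.11 and 0.37. Among 297 other genes that averaged 100 FPKM or more, the level at which most members lie, the median was 0.08. No SAR library overlapped the control libraries in 57 members that were higher (35.5% of all genes) and in 1 that was lower (15.2%).

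How many members passed the test depended on the scaling between libraries. Each library was also divided by its median ratio to the others, which moved the median of all genes from 0.12 to 0.00 and that of the members from 0.22 to 0.10. After this rescaling 7 members were upregulated, 8.54% against 13.8% of all genes, and RPL17 alone was downregulated (15.5% of all genes). The 7 were RPL34, RPS28, RPL22, RPL36, RPL13A, RPL28 and RPS9. The groups were then apart upwards in 33 members (23.7% of all genes), and downwards in RPL17, RPL36A and RPS27L (24.2%). The log2 fold change stayed above 0 in 68 of 82 members (50.1% of all genes). Single libraries mattered too. The 7 rescaled calls became 0 without control replicate 3 or SAR replicate 2, 1 without control replicate 2 or SAR replicate 1, 5 without control replicate 1 and 11 without SAR replicate 3, so none of the members' rescaled calls upwards was kept in every such fit. As deposited, the count of 42 became 13 and 7 without control replicates 2 and 3, 22 and 11 without SAR replicates 1 and 2, and 40 and 45 without control replicate 1 and SAR replicate 3. Of the 43 members called in either direction, 7 kept the call whichever library was left out, namely RPL13A, RPL22, RPL34, RPL36, RPS9, RPS13 and RPL17.

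**Figure D2:**
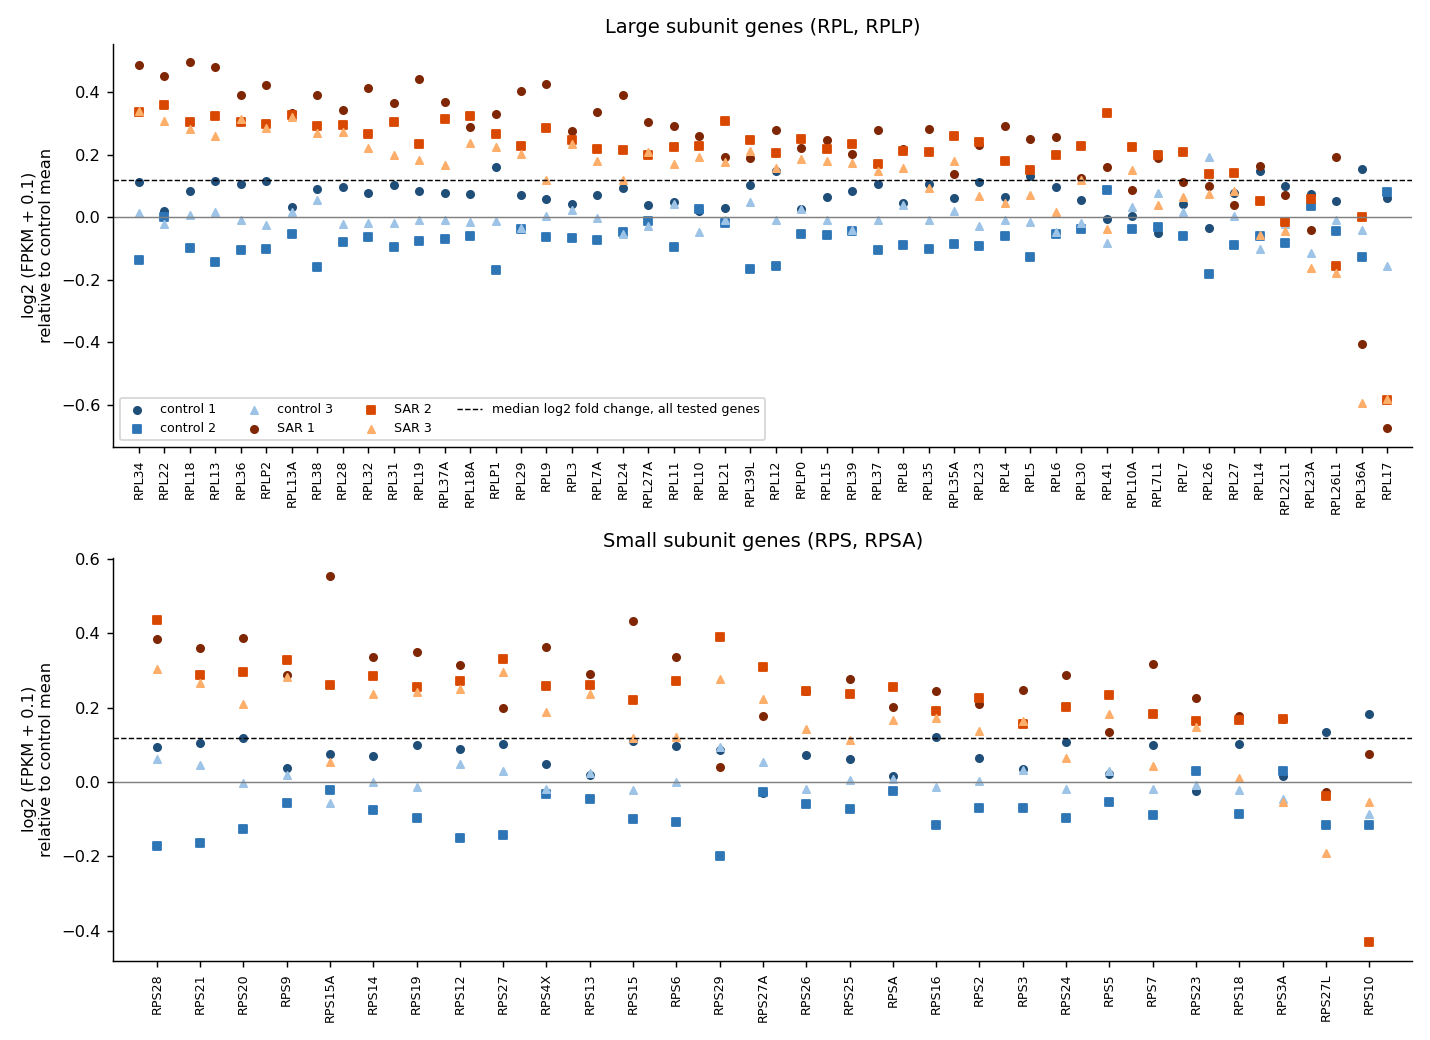
Tested ribosomal protein genes in each library, without those not reported here, as log2(FPKM + 0.1) relative to the mean of the 3 control libraries, ordered by the fitted log2 fold change, for the large subunit (top) and the small subunit (bottom). The dashed line marks the median over all tested genes (0.12). Most SAR points lie above the control points, and RPL17 lies far below.

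Members also differed together between libraries of the same condition. Control replicate 1 was higher than control replicate 2 in 75 of 82 members, with a median log2 difference of 0.15, while the median over all genes was 0.03. SAR replicate 1 was higher than SAR replicate 3 in 73 members (0.12, against -0.01 over all genes), and SAR replicate 2 was higher than SAR replicate 3 in 76. Relative to the control mean, the median member stood at 0.08, -0.07 and -0.01 on the log2 scale in control replicates 1, 2 and 3 and at 0.28, 0.24 and 0.17 in the SAR replicates. The step from the highest control library to the lowest SAR library was thus smaller than the range within the control libraries. The median coefficient of variation over the control libraries was 5.83% for members and 7.73% for all tested genes.

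In the large subunit, RPL34 had the largest fold change. RPL34 was at 121, 102 and 113 FPKM in control replicates 1, 2 and 3 and at 157, 141 and 142 FPKM with SAR. All SAR libraries were higher, with a log2 fold change of 0.39 (SE 0.0801, limma adjusted p = 0.0119) and of 0.27 after rescaling (adjusted p = 0.0348). RPL22, an RNA-binding protein of the large subunit, was at 37.3, 36.8 and 36.3 FPKM in control and at 50.4, 47.2 and 45.6 FPKM with SAR. Its control libraries were nearly equal and all SAR libraries were higher, by 0.37 on the log2 scale (SE 0.0543, limma adjusted p = 0.00388). RPL18 (0.36), RPL13 (0.36) and RPL36 (0.34) followed. RPL18 lost the call without control replicate 3 (adjusted p = 0.0539 from limma), and RPL13 without control replicate 2 or 3 or SAR replicate 1 or 2 (up to 0.0673). RPL36 shares 17.6% of its exon bases on the same strand with HSD11B1L, which rose by 1.05 on the log2 scale. HSD11B1L was at 1.068 to 1.45 FPKM in control and at 2.545 to 2.691 FPKM with SAR, beside RPL36 at 111 to 128 and 147 to 156 FPKM. RPL13A, a common reference gene and a component of the GAIT complex of translation control, rose from 749, 706 and 741 FPKM to 922, 919 and 913 FPKM, a log2 fold change of 0.33 (limma adjusted p = 0.00684, and 0.0292 after rescaling).

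In the small subunit, RPS28 was at 94.5, 78.7 and 92.6 FPKM in control replicates 1, 2 and 3 and at 116, 120 and 109 FPKM with SAR. The groups were apart, with a log2 fold change of 0.38 (SE 0.0822, limma adjusted p = 0.0145, and 0.0538 without SAR replicate 2). Reads were also counted at 2 RPS28 pseudogenes, of which RPS28P7 had a mean of 545 FPKM. RPS28 itself held 64.2% of the reads of gene and pseudogenes in control and 65.7% with SAR, on average. Scaled to the library total, their sum was higher with SAR without overlap, by 0.35 on the log2 scale. RPS9 rose from 191, 179 and 188 to 227, 234 and 226 FPKM, by 0.30 on the log2 scale (limma adjusted p = 0.00636, and 0.0343 after rescaling). RPS21 (0.31) and RPS20 (0.30) also rose as deposited, and their adjusted p-values after rescaling were 0.0955 and 0.111. Both calls were lost without control replicate 2 or 3 or SAR replicate 1 or 2 (limma adjusted p up to 0.0732 and 0.0860). RPSA, which is also known as the laminin receptor precursor, rose by 0.21 as deposited (adjusted p = 0.0281 from limma, and 0.269 after rescaling), a call that only the fit without SAR replicate 3 kept among those that left out a library.

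Levels are given in FPKM and so per length of the gene. Among the highest means over the 6 libraries were those of RPL41 at 1521, RPS12 at 1217 and RPS2 at 1015 FPKM, and the median member was at 263 FPKM. RPL41, whose product is the smallest ribosomal protein, was at 1429, 1524 and 1356 FPKM in control and at 1607, 1810 and 1398 FPKM with SAR, and the groups overlapped. At the lower end, RPS10 was at 1.06 and RPL36A at 1.16 FPKM. RPL3L and RPL10L, paralogs known from striated muscle and from testis, had means of 0.392 and 0.110 FPKM and were not tested. RPL10L had 10 reads in control replicate 1, 1 read in SAR replicate 3 and 0 in the other 4 libraries. The length behind these values was recovered as the smallest that gave whole reads in all libraries, and was between 639 and 9840 bases. It equaled the length of all exons annotated in GENCODE 29 in 12 of the 84 members. Members with a long recovered length have low FPKM for their number of reads.

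**Figure D3:**
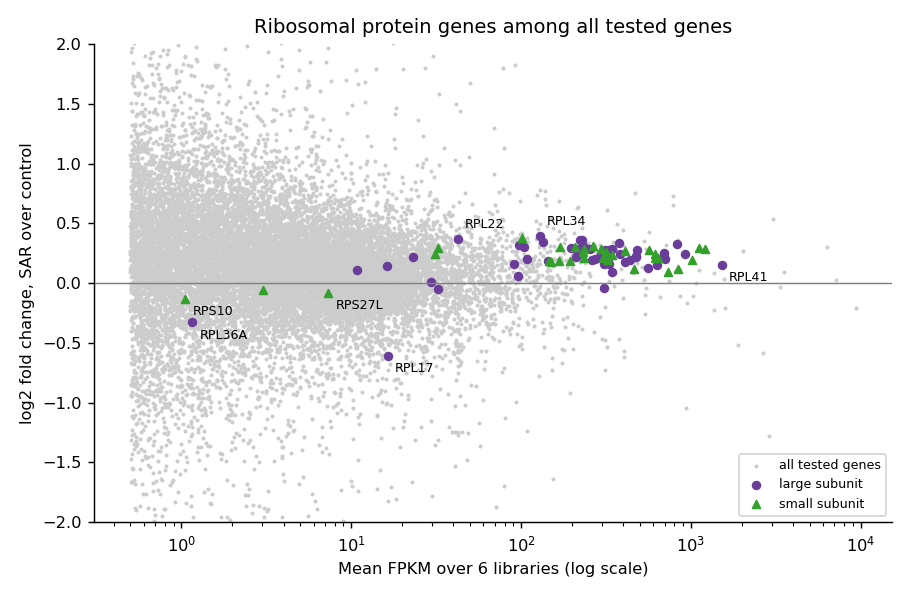
The fitted log2 fold change of SAR over control (as deposited) against the mean FPKM on a log axis, for all 16371 tested genes in grey, with large subunit genes as circles and small subunit genes as triangles. The 202 genes with a log2 fold change beyond 2 in either direction lie outside the axis. Most members form a band above 0 at 100 FPKM and more, and RPL17, RPL36A, RPS10 and RPS27L lie below it at lower levels.

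RPL17, on the minus strand of chr18:49488453-49492523 (GRCh38), was the member that fell. It was at 20.8, 21.1 and 17.9 FPKM in control replicates 1, 2 and 3 and at 12.4, 13.3 and 13.3 FPKM with SAR. All SAR libraries were lower, with a log2 fold change of -0.61 (SE 0.0771, limma adjusted p = 0.00239) and of -0.73 after rescaling (adjusted p = 0.00157). RPL17 shares 24.8% of its exon bases with the readthrough gene RPL17-C18orf32, which was under 0.2 FPKM in every library. Reads of this family were counted mostly at pseudogenes: RPL17 itself held 1118, 1263 and 828 reads in control and 509, 551 and 599 with SAR, and its 6 pseudogenes with a mean of at least 0.5 FPKM held 3306, 3324 and 3116 in control and 2294, 2899 and 3311 with SAR. Scaled to a library of 1000000 reads (RPM), gene and pseudogenes together were at 202, 188 and 209 RPM in control and at 168, 204 and 213 RPM with SAR. These sums overlapped, with a log2 difference of -0.04. Because a gene and a near-identical copy can share reads, the value of RPL17 alone is uncertain, and the part of such sharing in its fall was not tested.

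The same was seen at RPL36A and RPS10. RPL36A itself held 3.30% of the reads of its family in control and 2.08% with SAR, on average, and the rest lay at 5 pseudogenes, of which RPL36AP37 had a mean of 530 FPKM. RPL36A alone had a log2 fold change of -0.33 (SE 0.185, limma adjusted p = 0.206), while the family was at 165, 145.5 and 155 RPM in control and at 213, 188 and 187 RPM with SAR, higher without overlap by 0.33 on the log2 scale. RPS10 held 35.6% of its family's reads in control and 26.9% with SAR and had a log2 fold change of -0.13 (limma adjusted p = 0.606). RPS10 shares 39.4% of its exon bases with RPS10-NUDT3, which was under 0.03 FPKM. RPS10 and its pseudogene together were at 7.21, 6.47 and 7.89 RPM in control and at 8.63, 7.26 and 10.1 RPM with SAR, and the groups overlapped.

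Over all members, 859 pseudogenes were in the table, and 201 of them, belonging to 62 members, were tested. Of these 201, 37 rose and 4 fell as deposited, and 17 rose and 5 fell after rescaling. Calls upwards were thus rarer than over all tested genes, at 18.4% against 23.7% as deposited and 8.46% against 13.8% after rescaling. The median log2 fold change of the 201 was nevertheless higher than that of all tested genes. It was 0.35 against 0.12 as deposited and 0.23 against 0.00 after rescaling, beside 0.22 and 0.10 for the members. When reads of each member and its tested pseudogenes were added, the family sum was higher with SAR on average in 60 of 62 families, apart upwards in 45 and apart downwards in 0. These are 96.8%, 72.6% and 0%, and over all tested genes, as deposited, the log2 fold change was above 0 in 64.0% and the groups were apart upwards in 35.5% and downwards in 15.2%. The family sums were scaled to the library total only and were not rescaled. They add up several genes, while the values over all tested genes are of single genes down to a mean of 0.5 FPKM. The log2 differences of the family sums ran from -0.05 to 0.39 with a median of 0.24 and an SD of 0.0829, while the SD over the same 62 members counted alone was 0.159. Fewer than 50% of the family's reads lay at the member itself in 3 families, those of RPL17, RPL36A and RPS10.

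**Figure D4:**
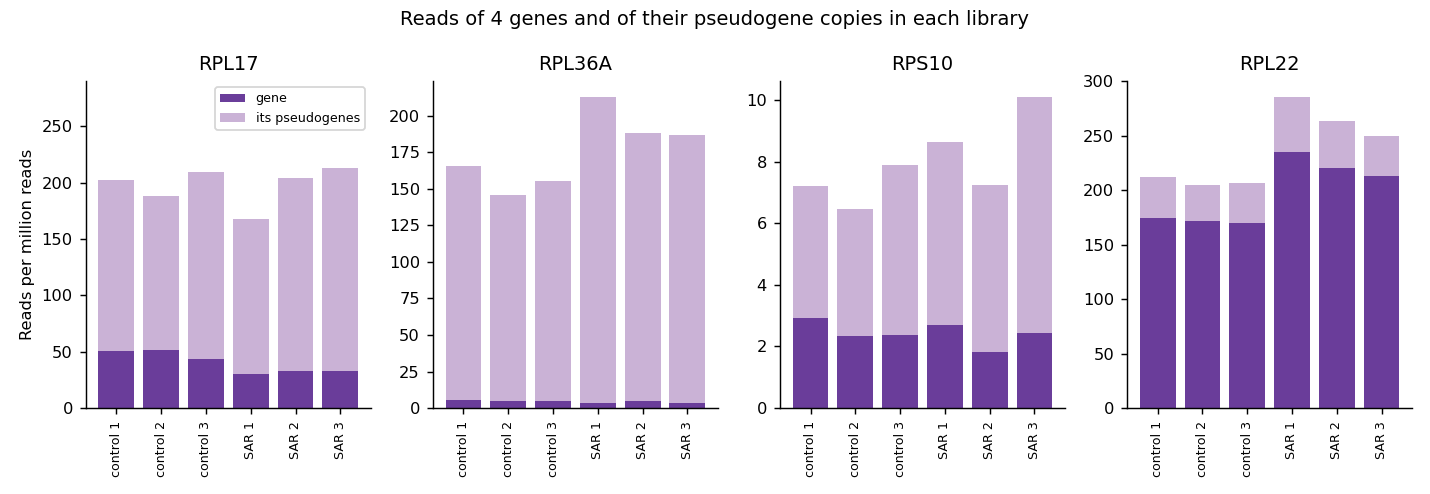
Reads in each library, scaled to 1000000 reads (RPM), for RPL17, RPL36A, RPS10 and RPL22, with the reads of the gene itself in dark and those of its tested pseudogenes in light purple. At RPL17 the dark part is smaller with SAR while the whole bars overlap, at RPL36A nearly all reads lie at pseudogenes, and at RPL22 both the gene and the whole bar are higher with SAR. Axes differ between panels.

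Paralogs were compared with their parent genes within each library, which needs no scaling between libraries. The percentages here and in the next paragraph are of FPKM and so depend on the exon lengths counted. These were recovered as 2051 bases for RPL22L1 and 4665 for RPL22, and 8825 for RPS27L and 1028 for RPS27. In reads, control replicate 1 held 1409 of RPL22L1 and 3816 of RPL22, and 1600 of RPS27L and 12352 of RPS27. Differences of a ratio between the groups do not depend on these lengths. RPL22L1, the paralog of RPL22, was at 84.0%, 75.1% and 79.4% of the level of RPL22 in control replicates 1, 2 and 3 and at 61.0%, 61.4% and 62.3% with SAR. All SAR libraries were lower, by 0.37 on the log2 scale (two-sided exact permutation p = 0.1, the smallest possible, and 0.3 after adjustment over 6 pairs). RPL22L1 itself was at 27.7 to 31.4 FPKM in control and at 28.4 to 30.7 FPKM with SAR, and its log2 fold change was 0.01 as deposited and -0.12 after rescaling. RPS27L, a paralog of RPS27 that p53 is known to induce, was at 1.41% to 1.51% of RPS27 in control and at 1.05% to 1.26% with SAR. The groups were again apart, with a log2 difference of -0.36 and the same p-values. RPS27 rose by 0.28 as deposited (limma adjusted p = 0.0361, 0.145 after rescaling, and up to 0.117 without control replicate 2 or 3 or SAR replicate 2 or 3), and RPS27L had a log2 fold change of -0.08 (limma adjusted p = 0.491).

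The other pairs overlapped between the groups. RPL39L was at 8.59%, 7.78% and 9.01% of RPL39 in control and at 8.40%, 8.54% and 8.69% with SAR, a log2 difference of 0.02. RPL7L1, a ribosome biogenesis factor, was at 2.73% to 3.04% of RPL7 in control and at 2.86% to 3.08% with SAR. RPL26L1 was counted at 276% to 350% of RPL26 in control and at 259% to 339% with SAR, and RPL26 itself held 51.7% to 59.6% of the reads of its family, the rest lying at 2 pseudogenes. RPL3L was under 0.1% of RPL3 in every library.

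**Figure D5:**
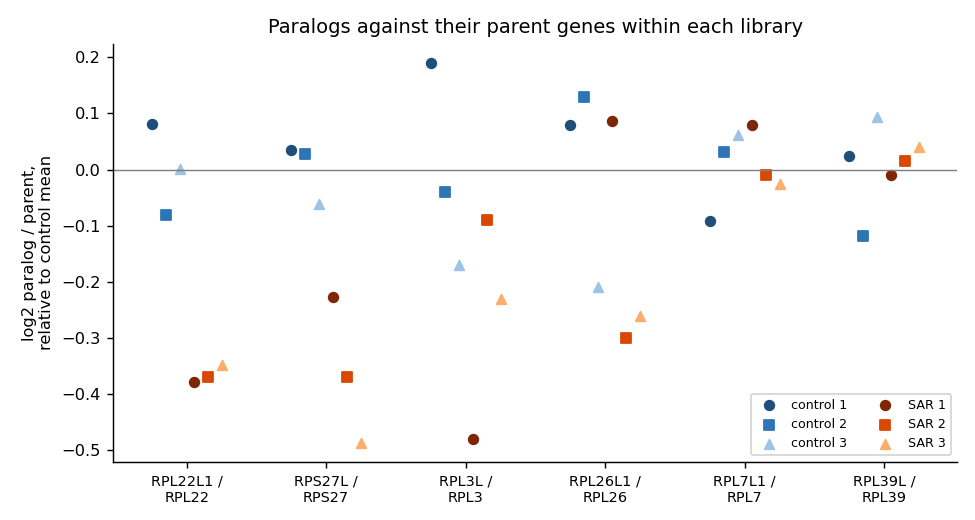
The log2 ratio of 6 paralogs to their parent genes in each library, relative to the mean of the control libraries. For RPL22L1 against RPL22 and RPS27L against RPS27 the 3 SAR libraries lie below the 3 control libraries, and for the other pairs they overlap.

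RPLP0, which encodes the base of the ribosomal stalk, served as the internal reference in the study's qPCR. Its primers, 5′ to 3′, are shown with capitals for the bases that lie in exon 2.
RPLP0 forward: cgtcctcgtggaagTGACAT
RPLP0 reverse: atctgcttggagcccacatt
The forward primer lies across the junction of exon 1 (chr12:120201083-120201096, 14 bases) and exon 2 (chr12:120200826-120200831, 6 bases), and the reverse primer lies in exon 3 (chr12:120199421-120199440) of the GENCODE 29 transcript (GRCh38, minus strand), with a product of 181 bases. Both primers matched exactly in 9 of the 23 RPLP0 transcripts that held either. Of other genes, the pseudogene RPLP0P6 matched the reverse primer and not the forward primer.

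RPLP0 was at 649.6, 614 and 650.1 FPKM in control replicates 1, 2 and 3 and at 743, 758 and 726 FPKM with SAR. All SAR libraries were higher, with a log2 fold change of 0.22 (SE 0.0574, limma adjusted p = 0.0270) as deposited and of 0.10 after rescaling (adjusted p = 0.220). The adjusted p of RPLP0 as deposited was 0.0827, 0.0836, 0.0593 and 0.101 without control replicates 2 and 3 and SAR replicates 1 and 2. Relative to RPLP0 within each library, FOXA2 was 2.33-fold and SOX17 1.79-fold higher with SAR. Relative to GAPDH the folds were 2.71 and 2.08, relative to TBP 2.59 and 1.99, and with FPKM as deposited 2.71 and 2.08. Each of these differences had a two-sided exact permutation p = 0.1, the smallest possible, and their direction was the same with every reference. Among 19 common qPCR reference genes, 7 rose and 2 fell as deposited (36.8% and 10.5%, against 23.7% and 9.55% of all tested genes), 2 rose and 4 fell after rescaling (10.5% and 21.1%, against 13.8% and 15.5%), with TFRC, the transferrin receptor, at -1.27.

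Among ribosomal protein genes outside the symbol rule, FAU, which encodes a ubiquitin-like protein fused to a small subunit protein, rose by 0.31 (limma adjusted p = 0.0392), and RACK1, a scaffold on the small subunit, rose by 0.19 (0.0475). RPL36AL had a log2 fold change of 0.19 (0.156). Neither FAU nor RACK1 passed after rescaling, and without single libraries the adjusted p of FAU and RACK1 reached 0.122 and 0.140.

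Factors that assemble the ribosome were counted in the same fit. For this and the following lists, 23.7% of all tested genes rose and 9.55% fell as deposited, and 13.8% rose and 15.5% fell after rescaling. Of 100 tested ribosome biogenesis factors, 10 rose and 12 fell as deposited and 3 rose and 23 fell after rescaling, and the median log2 fold change was 0.01 and -0.11. The RNA helicase DDX21 fell by 0.66 on the log2 scale (limma adjusted p = 0.00300), the box C/D snoRNP protein RRP9 fell by 0.63 (0.00254) and the 60S assembly ATPase MDN1 fell by 0.66 (0.00352), while the helicase DDX56 rose by 0.40 (0.00219). Of 20 genes of the RNA polymerase I machinery, 7 rose and 1 fell (35% and 5%), and 3 rose and 1 fell after rescaling (15% and 5%). TAF1D, a subunit of the promoter selectivity factor, fell by 0.62 (limma adjusted p = 0.000703), and TAF1C rose by 0.45 (0.00487).

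Among 46 translation initiation factors, 4 rose and 7 fell (8.70% and 15.2%), and 1 rose and 15 fell after rescaling (2.17% and 32.6%). The scaffold EIF4G1 fell by 0.43 (limma adjusted p = 0.00639) and EIF5 rose by 0.92 (0.0135). Of 12 elongation and termination factors, 2 rose and 2 fell under both scalings (16.7% each). Of 25 other mRNAs known to carry a TOP motif, 6 rose and 3 fell (24% and 12%), with a median of 0.10, and 1 rose and 3 fell after rescaling (4% and 12%). The snoRNA host transcript EPB41L4A-AS1 had the smallest adjusted p of this list and rose by 0.50 (0.00191 from limma, and up to 0.0133 without single libraries). TPT1 rose by 0.34 (limma adjusted p = 0.0262, and up to 0.0802 without control replicate 2 or 3 or SAR replicate 2), and the 3 that fell were other snoRNA host transcripts, GAS5 (-0.24), SNHG1 (-0.30) and SNHG5 (-0.80). SNHG6, also a host, was at 0.26 (adjusted p = 0.0860 from limma). Without single libraries the adjusted p of GAS5 and SNHG1 reached 0.0699 and 0.0808. Of 26 genes of ribosome quality control and stress, 1 rose and 9 fell (3.85% and 34.6%), and 0 rose and 11 fell after rescaling (42.3%), among them G3BP1, a stress granule protein, at -0.38 and GADD45A, a p53 target, at -0.60.

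Of 23 genes that control growth and ribosomal protein genes, 3 rose and 6 fell as deposited (13% and 26.1%). After rescaling 2 rose and 6 fell (8.7% and 26.1%), and the median log2 fold change was 0.09 as deposited and -0.03 after rescaling. MYCN, a transcription factor that drives ribosome production, was at 8.08, 6.22 and 7.70 FPKM in control replicates 1, 2 and 3 and at 12.5, 14.2 and 12.5 FPKM with SAR. It rose by 0.83 on the log2 scale (limma adjusted p = 0.00278, and 0.00399 after rescaling). Its relative MYC was at 18.5 to 32.5 FPKM in control and at 12.1 to 16.4 FPKM with SAR, lower without overlap at a log2 fold change of -0.83 (limma adjusted p = 0.0230, and up to 0.0706 without control replicate 3 or SAR replicate 1 or 3). LARP4, which binds poly(A) tails of ribosomal protein mRNAs, fell by 0.57 (limma adjusted p = 0.00164), and GABPA, an ETS factor whose family binds CCGGAA, fell by 0.30 (0.0183, and up to 0.0659 without control replicate 2 or 3 or SAR replicate 1 or 2). Of 76 mitochondrial ribosomal protein genes, which encode the separate ribosome of mitochondria, 17 rose and 3 fell (22.4% and 3.95%) with a median of 0.14, beside 0.12 for all genes, and 2 rose and 4 fell after rescaling (2.63% and 5.26%) with a median of 0.01.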

How the data were processed

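mRNA of 3 control and 3 SAR samples was sequenced as paired-end libraries. The authors deposited FPKM per gene and library, and the submitters' processing notes name HISAT2, featureCounts, Subread, DESeq2 and GRCh38.p13. The strand setting and annotation release are not given in the sources used here. Gene symbols were found for 30235 of the 40396 IDs. Positions and overlaps came from GENCODE 29.

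Tests used R 4.3.3 and its package limma 3.58.1, with lmFit, a moderated variance that follows intensity (eBayes) and a pseudocount of 0.1 on log2 FPKM, which understates the change of low genes. Genes had to average 0.5 FPKM. Library values were compared by exact permutation tests. Library totals were recovered from FPKM and GENCODE 29 exon lengths. Reads of all 84 members were recovered with the smallest length that made them whole numbers (tolerance 0.03) in every library. Totals and reads cover counting error only. Python 3.11.15 with pandas 2.3.3, numpy 2.4.6, scipy 1.17.1 and matplotlib 3.10.9 made summaries and plots. The fit was tested on simulated data.

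The members and all gene lists were chosen with earlier results of these data known. The text names RPLP0, RPSA, the members highest and lowest in level and in fold change of each subunit, paralogs with their parents, untested members and the smallest adjusted p-values of each list. SNHG1, SNHG6, MYC, RPL28, RPS13, pseudogenes and overlapping genes were named after their values were seen. Some genes that these rules name are not reported here, though counts and sums include them. Alternatives were other pseudocounts, filters, scalings and call limits, no trend, protein-coding genes only, a replicate block and leaving out libraries.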

Additional observations from a re-analysis of the deposited data

How the results depend on the processing

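The 42 members higher with SAR became 10 with no filter on low values, 7 with median-ratio rescaling, 23 with quantile normalization and 0 with an absolute log2 fold change above 1, and 7 to 45 without single libraries, while the 1 member lower with SAR was lost (0) only to the fold limit among the alternatives run as deposited. After rescaling, chosen in addition once the data had been seen, leaving out single libraries gave 0 to 11 members higher and 1 to 2 lower, and a replicate block gave 5 higher and 1 lower. The large to small subunit ratio ran from -0.00994 to 0.00385 without single libraries and was 0.0139 without the 5 members with the highest mean FPKM. The log2 fold change of RPLP0 kept its direction but missed the threshold with no filter (0.22), median-ratio rescaling (0.10), quantile normalization (0.0156), the replicate block (0.22) and the fold limit (0.22), and ran from 0.19 to 0.23 without single libraries. The sample labels do not say whether the replicate numbers pair the libraries. Over all tested genes, deviations of libraries with the same number correlated at 0.0729, 0.00286 and 0.0247, and those with other numbers at -0.0833 to 0.0667. Over the 82 tested members, libraries with the same number correlated at 0.258, 0.0568 and 0.343, and those with other numbers at -0.295 to 0.0222. Every library correlated best with its own number there, which is a hint from the data and not from the design. With the replicate block 39 members were higher, 34 of them among the 42, with RPSA (adjusted p = 0.0566 from limma), RPS27 (0.0632) and, outside the members, RACK1 (0.0556) among the named genes that missed the threshold, and the differences in summed share (0.18, exact p = 0.25) and in subunit ratio (-0.005, exact p = 0.75) could not go below p = 0.25.

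Some fold changes that did not pass the test changed sign. RPL22L1 was at -0.117, -0.0363 and -0.0398 with median-ratio rescaling, quantile normalization and equal FPKM sums, RPS3A at -0.0272 and -0.0802 with the first and second of these, and RPL26 at -0.00983 with the first. Without single libraries, the value ran from -0.0345 to 0.0560 for RPL22L1, from -0.102 to 0.0112 for RPL23A, from -0.166 to 0.0191 for RPL26L1 and from -0.235 to 0.0183 for RPS10, and the ratio RPL7L1 to RPL7 from -0.0316 to 0.0446 and the ratio RPL39L to RPL39 from -0.0430 to 0.0624. The summed FPKM share of ribosomal protein genes kept its direction under every alternative run, and its difference ran from 0.16 to 0.19 without single libraries. With 3 libraries per group no exact p can be under 0.1, and RPS10 and RPL36A rest on 31 to 126 reads per library.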
